A study of Mus musculus with 22 samples.

Results

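The organic ion and drug transporters are membrane proteins of the solute carrier and ATP-binding cassette (ABC) superfamilies, here the genes whose symbol begins with Slc22a, Slco, Slc47a, Abca, Abcb, Abcc or Abcg followed by a digit. The microarray held a probe for 76 genes with such names. A gene was counted as a member when it was measured on at least 18 of the 22 arrays, which left 69 members among 17039 genes tested. The 7 genes without enough measurements were Abca14, Abca16, Abcb5, Abcc12, Slco5a1, Slco6c1 and Slco6d1.

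The study followed kidneys of C57BL/6 mice in which the left ureter was tied off, which blocks the flow of urine out of that kidney. Kidneys were taken at days 1, 2, 5 and 9 after the operation, with 3 obstructed replicates at each of days 1, 2 and 5 and 4 at day 9. Sham mice had the ureter freed but not tied and gave 2 replicates at each day, and 2 arrays of one sham mouse at day 1 were averaged to 1 replicate. This makes 13 obstructed and 8 sham replicates. All mice had the same strain and the labels give no genetic change, age or sex, nor do they say that replicates came from separate litters. The letters L and R that end replicate names are not explained in the labels.

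Kidney RNA was labelled with one dye and a mouse universal reference RNA with another on the same array. Each value below is therefore a log2 ratio of kidney over reference RNA for 1 gene, and the level of one gene cannot be set against that of another. A difference is the obstructed mean minus the sham mean of the same day on the log2 scale, so a difference of -1 is a halving, and the difference over all days is the plain mean of the 4 daily ones, given with its standard error (SE). Tests are from limma, a linear model fitted to all 17039 genes at once, and a gene is said to have risen or fallen where its Benjamini-Hochberg adjusted p was under 0.05.

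Some replicates stood apart. Sham replicate S06R of day 1 had a mean level of 5.15 over 3 measured adrenal gland markers, against 0.14 to 2.78 in the obstructed replicates and 1.11 to 2.25 in the other sham replicates. The labels give no sex, but the Y-linked genes lay above Xist in 7 obstructed and 3 sham replicates and below it in 6 obstructed and 5 sham replicates. Obstructed replicates S02L of day 1 and S09L of day 9 had the opposite sign to both sham replicates of their day. Several organic anion transporters are known to differ between male and female mice, so a value without one of these replicates is given where it ends a call or moves a difference much. Without S02L and S09L together 42 members passed over all days, and the day 1 falls of Abca13, Abcb10 and Slco4c1 did not pass. A fit with the Y-linked minus Xist level as a covariate kept the result over all days for 66 members. In that fit 2 members lost their call and 1 gained one. The labels put the scan images of 4 arrays, of days 1 and 5, in a folder of their own. With the folder as a block 42 members passed over all days, and at day 5 the Slc22a29 difference was -3.44 among 2 obstructed and 1 sham replicate of that folder and -3.24 among 1 of each in the other.

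The proximal tubule of the kidney clears drugs, toxins, urate and metabolic waste from blood. Basolateral carriers of the Slc22a family take up organic anions in exchange for dicarboxylates or organic cations along the membrane potential, and carriers of the brush border, among them Slc47a1, Abcc2, Abcc4, Abcb1a and Abcg2, pass them into urine. The Slco carriers move bile acids, steroid conjugates, prostaglandins and thyroid hormone, while many Abca, Abcb and Abcg proteins move lipids, sterols, peptides or haem precursors in cells of many kinds.

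Hepatocyte nuclear factor 1 (HNF1) and nuclear receptors are known regulators of carriers in the proximal tubule. Of the 69 members, 57 matched RefSeq promoter entries (mouse build GRCm38.p6), with 67 windows between them, and the 250 bases before the start of transcription were searched on both strands for short motifs. The HNF1 half-site GTTAAT was found in 3 member windows, or 4.48%, against 6.43% of all 32851 windows. On the other strand it reads ATTAAC. The half-site was in 8.57% of the 35 windows of members that fell over all days, not far from the share of all windows. It was in none of the 6 windows of members that rose or the 26 of members that did not pass. The 3 windows with a match belonged to Slc22a6, Slc22a8 and Slc22a29, all on chromosome 19 and all lower in obstructed kidneys. They are shown with the half-site in capitals, beside the window of Abca1, the member with the greatest rise over all days, which holds none. Each runs 5′ to 3′ along the gene and ends at the base before the start.
Slc22a6 (chr19:8617746-8617995, plus strand): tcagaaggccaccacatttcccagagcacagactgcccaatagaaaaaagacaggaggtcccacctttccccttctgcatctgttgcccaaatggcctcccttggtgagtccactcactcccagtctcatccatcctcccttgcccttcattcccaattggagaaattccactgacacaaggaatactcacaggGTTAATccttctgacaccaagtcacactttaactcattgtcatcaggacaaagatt
Slc22a8 (chr19:8592932-8593181, plus strand): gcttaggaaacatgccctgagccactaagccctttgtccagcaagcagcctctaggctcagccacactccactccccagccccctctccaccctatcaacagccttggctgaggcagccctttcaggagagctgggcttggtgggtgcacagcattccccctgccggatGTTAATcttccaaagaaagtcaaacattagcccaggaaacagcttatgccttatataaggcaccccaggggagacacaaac
Slc22a29 (chr19:8218901-8219150, minus strand): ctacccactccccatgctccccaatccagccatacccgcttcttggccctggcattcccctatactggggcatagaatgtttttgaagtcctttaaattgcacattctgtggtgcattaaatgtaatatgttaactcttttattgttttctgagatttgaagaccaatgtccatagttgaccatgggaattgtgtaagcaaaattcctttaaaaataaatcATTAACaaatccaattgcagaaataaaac
Abca1 (chr4:53159896-53160145, minus strand): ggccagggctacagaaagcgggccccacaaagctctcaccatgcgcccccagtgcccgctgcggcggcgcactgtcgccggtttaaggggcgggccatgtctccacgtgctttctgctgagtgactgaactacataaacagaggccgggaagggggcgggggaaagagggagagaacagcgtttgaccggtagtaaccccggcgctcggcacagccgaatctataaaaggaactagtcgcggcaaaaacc

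The half-site began 56, 81 and 29 bases before the start of Slc22a6, Slc22a8 and Slc22a29. The nuclear receptor half-site AGGTCA was in 14.9% of member windows and in 14% of all windows, and the antioxidant response element core TGACNNNGC was in 8.96% of member windows and in 10.2% of all windows. A match of this kind describes the letters of the window and is not a measured binding site.

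Over all days 35 of the 69 members fell and 8 rose in obstructed kidneys. Among all genes tested 26.0% fell and 27.0% rose, so members fell in 50.7% and rose in 11.6% of cases, against about as many falls as rises in the whole array. The median difference over the members was -0.28, against -0.01 over all genes. The even balance over all genes depends on the subtraction of array medians. Without that step 5177 genes fell and 4049 rose, and the medians were -0.33 for members and -0.06 for all genes. With quantile normalization 4922 fell and 3600 rose, and the medians were -0.30 and -0.07. A fall of at least 2-fold was seen for 9 members (3.23% of all genes) and a rise of that size for 3 (6.88% of all genes). In bulk tissue a lower value can come from fewer cells of a type or from less RNA in each cell, and these cannot be told apart here.

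**Figure D1:**
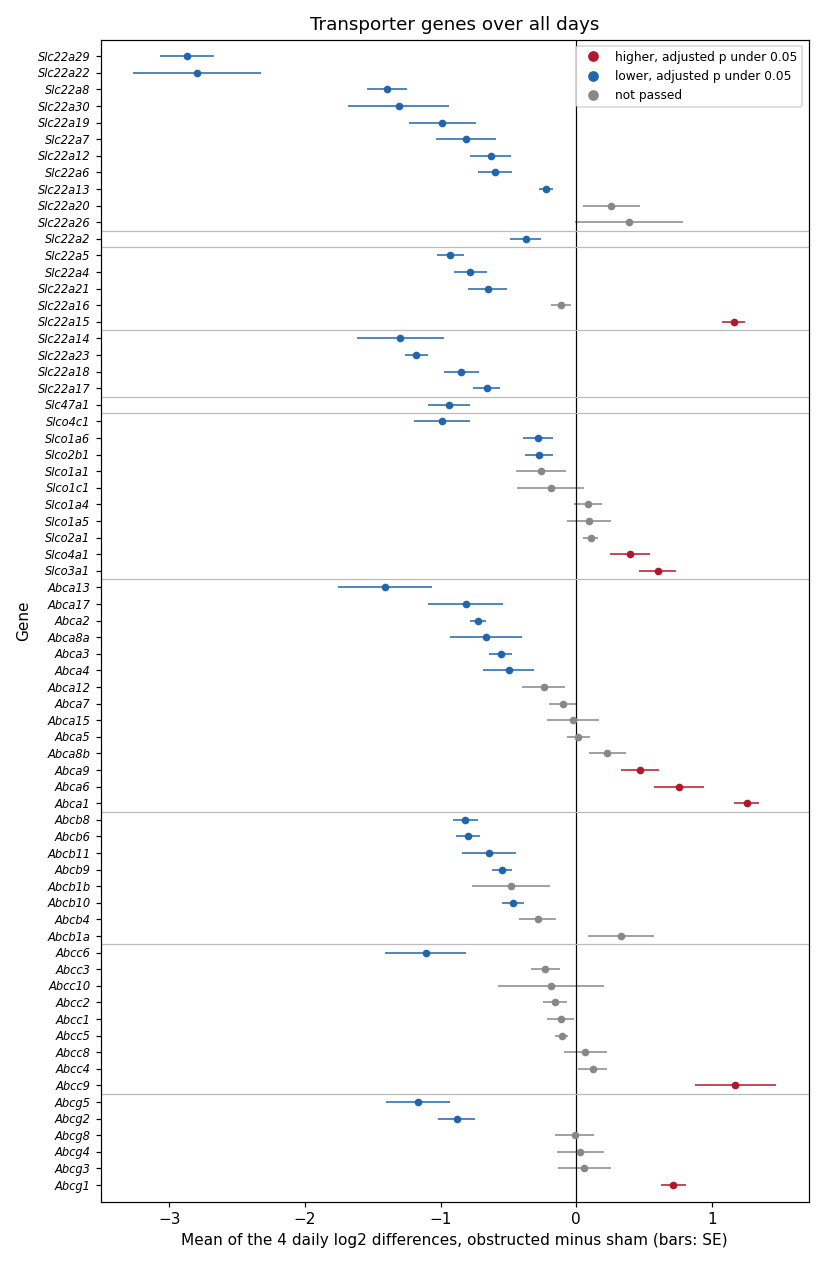
Difference between obstructed and sham kidneys for each of the 69 transporter genes, as the mean of the 4 daily log2 differences with its SE (horizontal axis), in blocks by transporter class. Blue points fell and red points rose at an adjusted p under 0.05, and 17 of 21 Slc22a genes lie in blue while only Slc22a15 of that family is red.

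The members also differed in the days on which they passed. At day 1, 12 members fell (9.42% of all genes fell) and 2 rose (8.13%). At day 2, 10 fell (6.44%) and 3 rose (9.05%). At day 5, 10 fell (11.7%) and 6 rose (14.4%).

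At day 9, 27 members fell (20.1% of all genes) and 7 rose (21.2%), and the median member difference was -0.63, against -0.01 over all genes. The counts of days 1 and 2 rest on few sham replicates. Without S06R, 6 members passed at day 1 in place of 14, and without sham replicate S08L, 4 passed at day 2 in place of 13. At day 5, 9 passed without sham replicate S32L in place of 16. In the 21 fits that each left out 1 replicate, 6 of the 14 calls of day 1 passed every time, as did 4 of the 13 of day 2, 8 of the 16 of day 5 and 22 of the 34 of day 9.

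The day 1 calls that passed in all 21 fits were those of Abca2, Abcb9, Slc22a8, Slc22a15, Slc22a17 and Slc22a29. At day 2 they were those of Abca1, Abca2, Slc22a15 and Slc22a23. Without S06R the day 1 differences of Abcb8 (-0.77), Slc22a23 (-0.46), Slc22a5 (-0.41) and Slco4a1 (1.08) did not pass, nor did those of Slc22a22, Abca13, Abcb10 and Slco4c1.

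Of the 69 members, 40 passed on at least 1 day (50.6% of all genes), 29 on no single day and 6 on all 4 days (6.54% of all genes). The 6 are thus 8.70% of the members, not far from the share over all genes. They were Slc22a29, Slc22a23, Slc22a5, Abca2 and Abcb8, which fell, and Slc22a15, which rose. Slc22a23, Slc22a5 and Abcb8 owe this to a day 1 call that did not pass without S06R, and with only the arrays marked L the day 1 difference of Slc22a15 was 0.51 and did not pass. Slc22a29, Slc22a5 and Abcb8 each lost the day 2 call without S08L or S39R. No member rose on one day and fell on another. Of the 27 members with over 1 probe none had probes called in opposite directions, and 6 had some probes that passed and others that did not. Every obstructed replicate lay below every sham replicate of its day on all 4 days for 12 members (8.84% of all genes), and above it for Abca1 and Slc22a15 (8.07% of all genes).

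**Figure D2:**
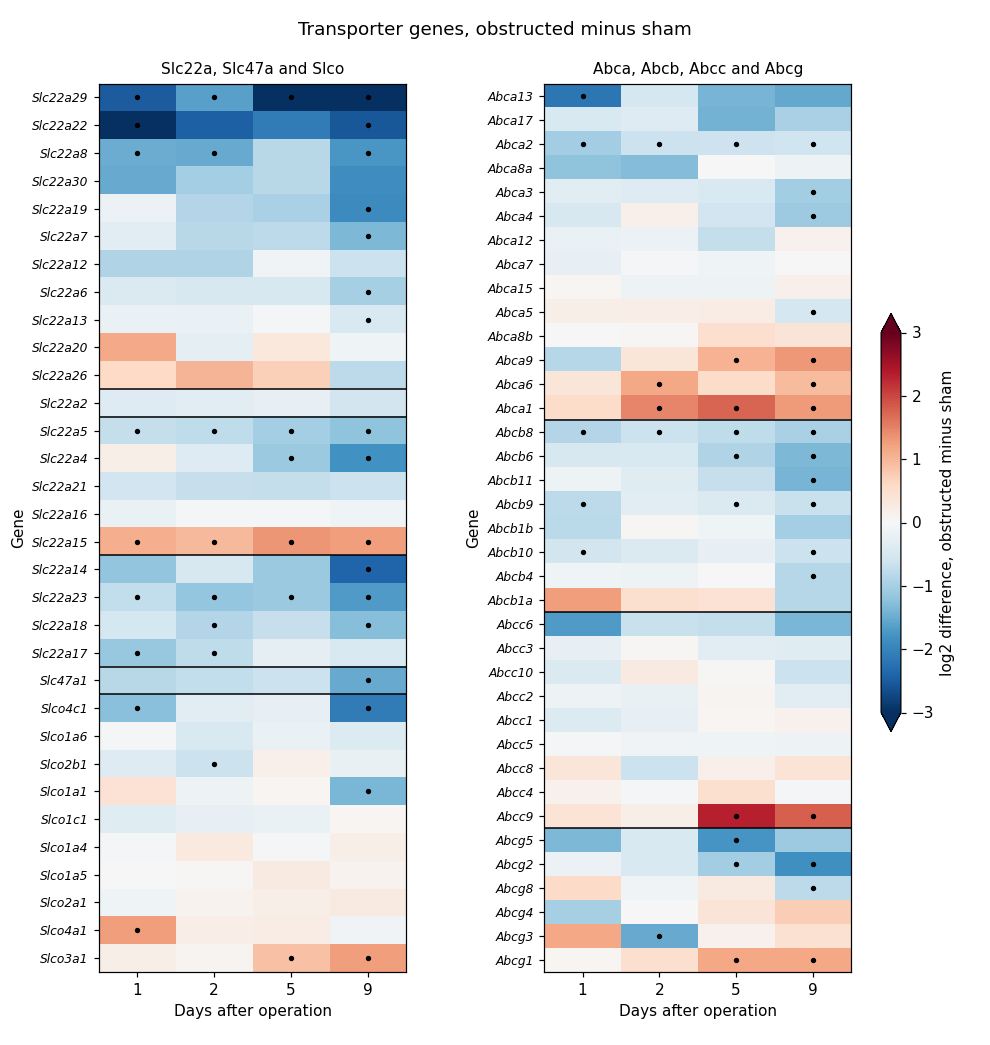
Log2 difference of obstructed minus sham kidneys (colour, limited to 3 in each direction) for each member (rows) at days 1, 2, 5 and 9 (columns), with a black dot where the adjusted p was under 0.05. The 27 blue dotted cells of day 9 outnumber those of any earlier day, and Slc22a29, Slc22a23, Slc22a5, Abca2, Abcb8 and Slc22a15 carry a dot at all 4 days.

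The organic anion carriers of the Slc22a family were the class with the most falls. Over all days 9 of the 11 fell (26.0% of all genes) and none rose (27.0%), and their median difference was -0.81. Slc22a20 (0.26 ± 0.21 SE, adjusted p = 0.328) and Slc22a26 (0.39 ± 0.40, adjusted p = 0.433) did not pass. Of the 8 members of the family on chromosome 19, where many of these carriers lie side by side, 6 fell.

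Slc22a6, also called OAT1, and Slc22a8, or OAT3, are the main basolateral uptake carriers for organic anions such as diuretics, antivirals and uraemic toxins. Slc22a6 had levels of 3.27, 2.40, 2.35 and 2.64 in obstructed kidneys at day 9, against 3.61 and 3.74 in sham kidneys. The groups did not overlap at day 9, and S09L was the obstructed replicate nearest to sham. The difference was -0.44 at day 1, -0.47 at day 2 and -0.48 at day 5, none of which passed, and it was -1.01 ± 0.24 at day 9 (adjusted p = 0.00369). Over all days Slc22a6 fell by 0.60 ± 0.13 (adjusted p = 0.000903). Its 2 probes gave -0.27 and -0.93, and both passed.

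Slc22a8 ran from 2.83 to 4.27 in the 13 obstructed replicates, with a median of 3.79, and from 4.52 to 5.54 in the 8 sham replicates, with a median of 5.25. No obstructed replicate reached the lowest sham replicate of any day. It fell by 1.50 ± 0.30 at day 1 (adjusted p = 0.00336), by 1.50 at day 2 (adjusted p = 0.00402) and by 1.74 ± 0.29 at day 9 (adjusted p = 0.000186), while the difference of -0.83 at day 5 did not pass (adjusted p = 0.0548). Without S08L the day 2 difference was -1.29 and did not pass, and with only the arrays marked L the day 1 difference was -1.19 and did not pass. Its 3 probes differed in size, since they gave -2.12, -1.52 and -0.54 over all days and the last did not pass (adjusted p = 0.114).

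Slc22a29, a carrier of the mouse chromosome 19 group, changed most of all members over all days (-2.87, next to -2.79 for Slc22a22) and at days 5 and 9, while Slc22a22 had the greater difference at day 1 and, without passing, at day 2. It had levels of 4.68, 5.68 and 5.53 in obstructed kidneys at day 1, against 7.94 and 7.63 in sham kidneys. Its day 9 levels were 4.43, 2.77, 3.01 and 3.01 in obstructed kidneys, against 7.09 and 7.58 in sham kidneys. The lowest sham replicate of any day lay above the highest obstructed one, and S09L was the highest obstructed replicate of day 9. Slc22a29 was 5.61-fold lower at day 1, 3.11-fold at day 2, 10.1-fold at day 5 and 16.3-fold at day 9 (adjusted p = 1.95e-06 at day 9). Without S09L the day 9 difference was -4.41 in place of -4.03. The day 2 difference did not pass without S18L (-1.42), S08L or S39R, nor with quantile normalization (-1.26).

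Slc22a22, or OAT-PG, carries prostaglandins in the mouse proximal tubule. It had levels of 2.02, 2.82 and 3.94 in obstructed kidneys at day 1, against 6.73 and 7.28 in sham kidneys, a 16.9-fold difference (log2 -4.08 ± 0.96, adjusted p = 0.00876). The groups did not overlap on that day, but replicates of both operations spread widely later, as obstructed values of 5.78, 2.09 and 4.38 and sham values of 5.07 and 7.30 at day 5 show. Sham levels of Slc22a22 ran from 7.30 to 8.34 in the 3 replicates with Y-linked genes above Xist. In the 5 sham replicates with Xist above, they ran from 5.07 to 7.28. At day 5 the lower sham value was of the second kind and the higher of the first. The part of sex in this spread was not tested. Over all days Slc22a22 fell by 2.79 ± 0.47 (adjusted p = 0.000136). Without S06R the day 1 difference was -3.80 and did not pass.

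The remaining organic anion carriers fell by less. Slc22a7 (OAT2), a carrier of cyclic nucleotides and other organic anions, fell by 0.81 ± 0.22 over all days (adjusted p = 0.00592), and Slc22a19 (OAT5) by 0.99 ± 0.24 (adjusted p = 0.00309). The urate carrier Slc22a12, known as URAT1 in humans, fell by 0.63 ± 0.15 (adjusted p = 0.00236), and Slc22a13 (OAT10) by 0.22 ± 0.05 (adjusted p = 0.00198). Slc22a30 fell by 1.31 ± 0.37 (adjusted p = 0.00808). Slc22a26, Slc22a29 and Slc22a30 are close relatives, so shared hybridisation among their probes is possible and was not tested.

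Uptake of organic cations depends on Slc22a2 (OCT2), and their release into urine on the proton exchanger Slc47a1 (MATE1). Slc22a2 had levels of 5.20, 4.64, 4.64 and 4.78 in obstructed kidneys at day 9, against 5.27 and 5.48 in sham kidneys. The gap between the groups was narrow, the day 9 test did not pass (-0.56 ± 0.22, adjusted p = 0.0505), and Slc22a2 fell only over all days together, by 0.37 ± 0.11 (adjusted p = 0.0116). With quantile normalization of the arrays that difference was -0.12 and did not pass.

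Slc47a1 had levels of 4.31, 2.96, 2.94 and 3.03 in obstructed kidneys at day 9, against 4.73 and 4.93 in sham kidneys. It fell by 1.52 ± 0.29 at day 9 (adjusted p = 0.000708), a 2.87-fold difference, and by 0.94 ± 0.15 over all days (adjusted p = 0.000101). All obstructed replicates lay below all sham replicates of their day at each day, although days 1, 2 and 5 did not pass alone. S09L lay more than 1 log2 unit above the other 3 obstructed replicates of day 9, and without it the difference at day 9 was -1.86.

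**Figure D3:**
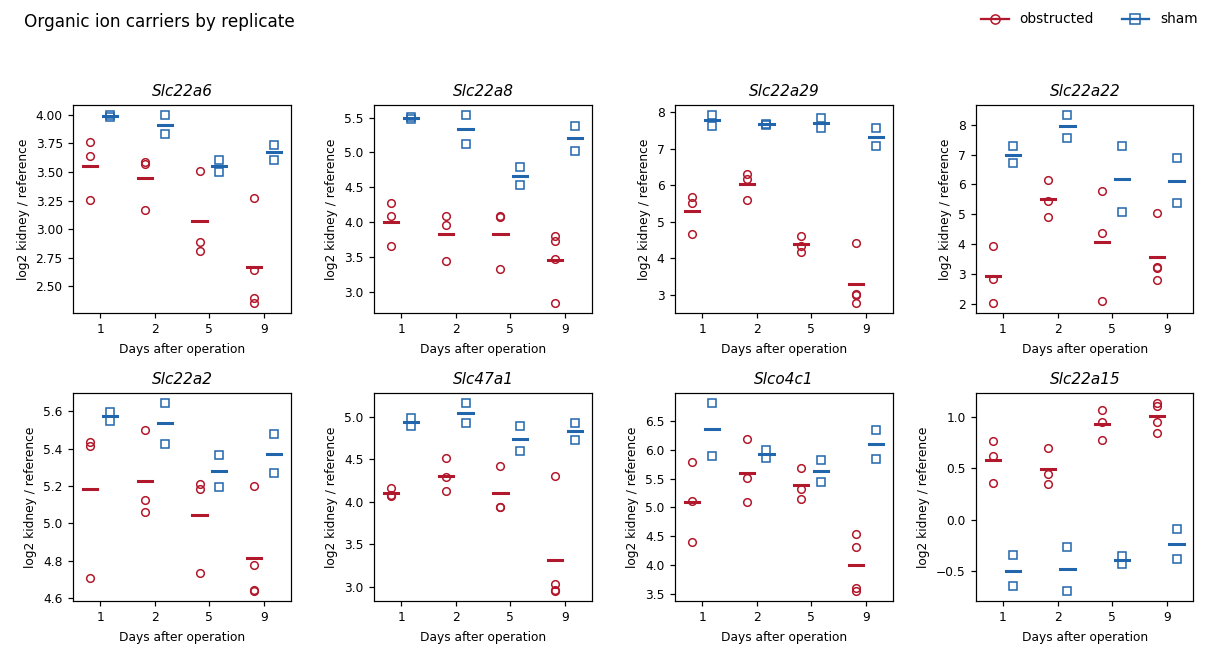
Log2 ratio of kidney over reference RNA (vertical axis, its range set for each gene) at days 1, 2, 5 and 9 for 8 carriers. Circles are obstructed and squares sham replicates, with horizontal bars for group means, and for Slc22a8, Slc22a29 and Slc47a1 all circles lie below all squares of their day while for Slc22a15 all lie above.

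Among the 5 carriers of carnitine and other zwitterions, 3 fell (26.0% of all genes) and 1 rose (27.0%) over all days. Slc22a5 (OCTN2), the carrier that recovers carnitine from urine, fell on each day, by 0.71, 0.76, 1.03 and 1.22 at days 1, 2, 5 and 9 (adjusted p from 0.0245 at day 1 to 0.000135 at day 9). The day 1 fall rests on single replicates, since it did not pass without S06R (-0.41), S05L (-0.52) or S38L (-0.65), with only the arrays marked L (-0.30), with quantile normalization (-0.48) or with the image folder as a block (-0.63). The day 2 fall of Slc22a5 did not pass without S04L (-0.70), S08L (-0.80) or S39R (-0.71), while those of days 5 and 9 passed in all 21 fits that left out 1 replicate. Slc22a21 (OCTN3), a carnitine carrier of the mouse, fell by 0.65 ± 0.14 over all days (adjusted p = 0.00117). Slc22a16 did not pass (-0.11 ± 0.07, adjusted p = 0.218).

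Slc22a4 (OCTN1), the carrier of the antioxidant ergothioneine, moved with time. It had levels of 1.96, 2.33 and 2.06 in obstructed kidneys at day 1, against 1.96 and 1.90 in sham kidneys. Its levels at day 9 were 0.83, 0.55, 0.82 and 1.08 in obstructed kidneys, against 2.68 and 2.60 in sham kidneys. The groups overlapped at day 1 and were far apart at day 9. The differences were 0.18, -0.38, -1.11 and -1.82 at days 1, 2, 5 and 9, of which the last 2 passed (day 5 not without S22L, -0.95), and the day 9 difference exceeded that of day 1 by -2.01 (adjusted p = 0.00274).

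Slc22a15, a carrier of zwitterions such as carnosine, was the one Slc22a gene that rose. It had levels of 0.36, 0.77 and 0.62 in obstructed kidneys at day 1, against -0.35 and -0.65 in sham kidneys. At day 9 it had levels of 0.85, 0.95, 1.14 and 1.11 in obstructed kidneys, against -0.09 and -0.39 in sham kidneys. The lowest obstructed replicate of any day lay above the highest sham replicate. It rose 2.11-fold at day 1, 1.97-fold at day 2, 2.52-fold at day 5 and 2.38-fold at day 9 (adjusted p = 2.22e-05 at day 9), and the effect did not pass the test of a difference between days (adjusted p = 0.692).

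All 4 orphan members of the Slc22a family, whose substrates are little known, fell over all days (26.0% of all genes). Their median difference was -1.01. Slc22a23 ran from 2.07 to 3.10 in the obstructed replicates, with a median of 2.70, and from 3.39 to 4.08 in the sham replicates, with a median of 3.90. The ranges did not overlap, and the fall was 0.73, 1.17, 1.10 and 1.71 at days 1, 2, 5 and 9 (adjusted p = 2.41e-06 at day 9). Its day 1 fall did not pass without S06R (-0.46), with only the arrays marked L (-0.45) or with quantile normalization (-0.44). Slc22a17, a receptor for the iron carrier lipocalin-2, fell by 1.15 at day 1 and by 0.77 at day 2 (not passed without S18L, S08L or S39R) but did not pass at day 5 (-0.27, adjusted p = 0.35) or day 9 (-0.45, adjusted p = 0.0646). Slc22a18 fell by 0.85 ± 0.13 and Slc22a14 by 1.30 ± 0.32 over all days, the second without a value in S09L.

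Of the 10 Slco carriers, 3 fell, 2 rose and 5 did not pass over all days, and the median difference was -0.05. These shares are near the 26.0% and 27.0% of all genes that fell and rose. Slco4c1, a basolateral carrier of cardiac glycosides and thyroid hormone in the proximal tubule, had levels of 3.54, 3.59, 4.32 and 4.53 in obstructed kidneys at day 9, against 6.34 and 5.84 in sham kidneys. It was 4.28-fold lower at day 9 (log2 -2.10 ± 0.40, adjusted p = 0.000613), with no overlap, while at days 2 and 5 the differences of -0.34 and -0.25 did not pass. The day 1 difference of -1.26 passed, but not in 15 of the 21 fits that left out 1 replicate, and it was -0.80 without S06R.

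Slco1a1, an apical carrier of steroid conjugates that is abundant in male mouse kidney, had levels of 5.67, 5.67, 6.09 and 6.75 in obstructed kidneys at day 9, against 6.93 and 7.91 in sham kidneys. It fell at day 9 (-1.38 ± 0.36, adjusted p = 0.00595) but not over all days (-0.26 ± 0.19, adjusted p = 0.258), and the groups of day 9 did not overlap. Without S33L the day 9 difference of Slco1a1 was -0.89 and did not pass. Slco1a6 fell by 0.28 ± 0.11 over all days (adjusted p = 0.0393), and Slco2b1 by 0.27 ± 0.10 (adjusted p = 0.0341). Neither of these 2 falls held with quantile normalization, which gave 0.03 for Slco1a6 and -0.0045 for Slco2b1, and both failed to pass in many of the fits that left out 1 replicate. The prostaglandin transporter Slco2a1 did not pass as the mean of its probes (0.11 ± 0.06, adjusted p = 0.126), but its 2 probes differed, since one gave 0.36 and passed (adjusted p = 0.00126) and the other gave -0.15 and did not (adjusted p = 0.0604).

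Slco3a1 and Slco4a1 rose over all days. Slco3a1, a carrier of prostaglandins and thyroid hormone, had levels of 1.79, 1.80, 1.85 and 1.94 in obstructed kidneys at day 9, against 0.85 and 0.32 in sham kidneys, and it rose 2.40-fold (adjusted p = 0.00117). Slco4a1, a carrier of thyroid hormone, had levels of 1.83, 2.22 and 2.46 in obstructed kidneys at day 1, against 1.09 and 0.72 in sham kidneys, and it rose by 1.26 ± 0.30 (adjusted p = 0.00919). The sham value of 1.09 is the mean of the 2 arrays of one mouse, which read 2.00 and 0.19, and the first lies inside the obstructed range. The day 1 difference was 1.08 without S06R and 0.18 with only the arrays marked L, and it passed in neither case. The rise over all days also failed to pass in many of the fits that left out 1 replicate, with a difference of 0.22 without S08L. By day 9 the Slco4a1 difference was -0.10 (adjusted p = 0.813), which differed from day 1 by -1.36 (adjusted p = 0.0442).

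Of the 14 Abca members, which mostly move lipids, 6 fell (26.0% of all genes), 3 rose (27.0%) and 5 did not pass over all days. Abca1, which exports cholesterol to apolipoprotein A-I, had levels of 2.46, 2.22 and 2.38 in obstructed kidneys at day 1, against 1.59 and 2.03 in sham kidneys. At day 5 it had levels of 2.66, 3.15 and 2.78 in obstructed kidneys, against 1.36 and 0.88 in sham kidneys. The groups overlapped on no day, and the difference was 0.55, 1.46, 1.74 and 1.27 at days 1, 2, 5 and 9, of which the last 3 passed (adjusted p = 2.55e-05 at day 5).

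Abca6 and Abca9, both on chromosome 11, rose by 0.75 ± 0.18 and 0.47 ± 0.14 over all days (adjusted p = 0.00278 and 0.0105). The other Abca members on that chromosome did not rise. Abca8a (-0.66, adjusted p = 0.0465) and Abca13 fell over all days, while Abca5 (0.01) and Abca8b (0.23) did not pass. Abca6 also rose at days 2 and 9 (1.17 and 0.94), but not in 14 and 12 of the 21 fits that left out 1 replicate. Abca9 had levels of 1.48, 1.81 and 1.85 in obstructed kidneys at day 1, against 2.44 and 2.68 in sham kidneys. At day 9 it had levels of 4.45, 3.76, 3.86 and 4.01 in obstructed kidneys, against 3.26 and 2.15 in sham kidneys. Obstructed replicates were thus all below sham at day 1 and all above it at day 9, although the day 1 difference of -0.85 did not pass (adjusted p = 0.0502). The day 9 difference exceeded that of day 1 by 2.16 (adjusted p = 0.00388). Without S33L the day 9 difference of Abca9 was 0.76 in place of 1.31 and did not pass. With exact zeros kept as ratios of 1, its difference was 0.26 at day 5 and 0.19 over all days, and neither passed.

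The Abca genes that fell included Abca2, a lipid transporter of endosomes and lysosomes. Abca2 ran from -0.48 to 0.11 in the obstructed replicates, with a median of -0.08, and from 0.51 to 0.87 in the sham replicates, with a median of 0.60. The ranges did not overlap, and Abca2 was 2.05-fold lower at day 1 and 1.52-fold lower at day 9. Abca3, known from the surfactant bodies of lung, fell by 0.56 ± 0.09 and Abca13 by 1.41 ± 0.35 over all days (adjusted p = 6.5e-05 and 0.0028).

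In the Abcb class 5 of 8 members fell (26.0% of all genes) and none rose (27.0%) over all days. Their median difference was -0.52. Those that fell included Abcb6, Abcb8 and Abcb10, proteins of mitochondria tied to haem and iron handling, Abcb9, a peptide transporter of lysosomes, and Abcb11, the bile salt export pump of liver (-0.64 ± 0.20, adjusted p = 0.0134). Abcb8 ran from -0.28 to 0.52 in the obstructed replicates, with a median of 0.10, and from 0.56 to 1.11 in the sham replicates, with a median of 0.96. It fell by 0.89, 0.65, 0.77 and 0.96 at days 1, 2, 5 and 9. The day 1 fall of Abcb8 did not pass without S06R (-0.77), that of day 2 without S04L, S08L or S39R, and that of day 5 without S32L (-0.52), while that of day 9 passed in all 21 fits that left out 1 replicate.

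Abcb6 had levels of 0.43, -0.24, -0.25 and -0.15 in obstructed kidneys at day 9, against 1.20 and 1.36 in sham kidneys. It fell by 1.34 ± 0.17 at day 9 (adjusted p = 2.01e-05), and the difference was -1.50 without S09L, the highest obstructed replicate. Abcb9 fell by 0.55 ± 0.08 and Abcb10 by 0.47 ± 0.08 over all days (adjusted p = 1.88e-05 and 0.00015).

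The drug efflux pumps called P-glycoproteins, Abcb1a and Abcb1b, did not pass over all days. Abcb1a differed by 0.33 ± 0.25 (adjusted p = 0.276) and Abcb1b by -0.48 ± 0.29 (adjusted p = 0.175). For Abcb1b the sham replicate S06R had a level of -0.05, against -1.05, -2.50 and -2.84 in the obstructed replicates of day 1 and -2.58 in the other sham replicate. S06R is the replicate with the high adrenal marker level, and without it the Abcb1b difference over all days was -0.17. The Abcb1b difference was -0.80 without the other day 1 sham replicate, -0.92 with quantile normalization and -0.66 without S02L and S09L, and it passed in these 3 cases. The phospholipid pump Abcb4 did not pass over all days (-0.28 ± 0.14, adjusted p = 0.0936) but fell at day 9 (-0.86, adjusted p = 0.015), a fall that did not pass without S10L or S33L. Abcb1a and Abcb1b are related genes, so their probes may share signal, which was not tested.

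Most Abcc members did not pass, and 7 of 9 were in that position over all days, where 52.9% of all genes passed. The 7 are named next. These were Abcc1 to Abcc5, Abcc8 and Abcc10, and their differences lay between -0.23 and 0.12. Abcc2, the apical efflux pump for conjugates, differed by -0.16 ± 0.09 (adjusted p = 0.149) and Abcc4, which exports urate and nucleotides, by 0.12 ± 0.11 (adjusted p = 0.362). Abcc1 differed by -0.12 ± 0.10 (adjusted p = 0.349), Abcc3 by -0.23 ± 0.11 (adjusted p = 0.0855) and Abcc5 by -0.11 ± 0.05 (adjusted p = 0.0785). The calls of some depended on the processing. Abcc1 passed with quantile normalization (-0.38) and Abcc3 without median subtraction (-0.28). With 1 probe per gene Abcc4 (0.35) and Abcc5 (-0.43) passed, and the other probes gave -0.11 for Abcc4 and 0.14 and -0.02 for Abcc5. Abcc6, whose loss causes ectopic calcification, fell by 1.11 ± 0.30 (adjusted p = 0.0054).

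Abcc9, the sulfonylurea receptor subunit of potassium channels in vascular smooth muscle and pericytes, rose. It had levels of 7.60, 6.65 and 7.11 in obstructed kidneys at day 5, against 5.60 and 3.95 in sham kidneys, with no overlap. It rose by 2.34 ± 0.61 at day 5 (adjusted p = 0.0104) and by 1.78 ± 0.58 at day 9 (adjusted p = 0.0219), where obstructed levels of 5.18, 6.33, 7.32 and 7.12 overlapped with sham levels of 3.97 and 5.43. Without S32L the day 5 difference of Abcc9 was 1.52 and did not pass, and it was 1.52 and 3.15 within the 2 image folders. The day 9 difference did not pass without S10L (1.06), S35L (1.51) or S36L (1.57). The differences of 0.40 at day 1 and 0.17 at day 2 did not pass.

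Of the 6 Abcg members, 2 fell (26.0% of all genes), 1 rose (27.0%) and 3 did not pass over all days. Abcg2, the apical pump for urate and many drugs, had levels of 4.52, 3.81 and 3.71 in obstructed kidneys at day 1, against 4.04 and 4.34 in sham kidneys. At day 9 it had levels of 3.20, 2.19, 2.34 and 2.63 in obstructed kidneys, against 4.50 and 4.37 in sham kidneys. The groups overlapped at day 1 and not at day 9, where Abcg2 was 3.60-fold lower (adjusted p = 4.75e-05). Its difference was -0.18, -0.46, -1.03 and -1.85 at days 1, 2, 5 and 9. The last 2 passed, and that of day 5 did not without S32L (-0.82).

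Abcg1, which exports cholesterol to high-density lipoprotein, went the other way. It had levels of -1.21, -0.60 and -0.74 in obstructed kidneys at day 1, against -1.05 and -0.75 in sham kidneys. By day 9 its levels were -0.07, 0.14, 0.26 and 0.10 in obstructed kidneys, against -0.91 and -1.17 in sham kidneys. The groups overlapped at day 1 and were apart at day 9, and Abcg1 rose by 1.17 ± 0.19 at day 5 and by 1.15 ± 0.18 at day 9 (adjusted p = 0.000401 and 0.000121). Abcg5, part of the sterol pump of liver and gut, fell by 1.17 ± 0.24 over all days (adjusted p = 0.000659).

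The effect of obstruction differed between the 4 days for 5 members, against 5.04% of all genes, by limma's F test. These were Slc22a4 (adjusted p = 0.015), Abca9 (0.0181), Abcg1 (0.0395), Abcg3 (0.0395) and Abcg2 (0.0485), and Abca1 came next (0.054). Abcg3 had levels of -3.35, -2.69 and -1.91 in obstructed kidneys at day 2, against -0.66 and -1.61 in sham kidneys, and it fell on that day (-1.52 ± 0.39, adjusted p = 0.0169), though not without S04L (-1.17) or S08L (-1.04). At day 1 its difference was 1.16 and did not pass (adjusted p = 0.0528), where its levels were -0.89, -2.18 and -1.22 in obstructed kidneys, against -2.68 and -2.51 in sham kidneys. The count of 5 was 1 without S06R and 10 without S09L.

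**Figure D4:**
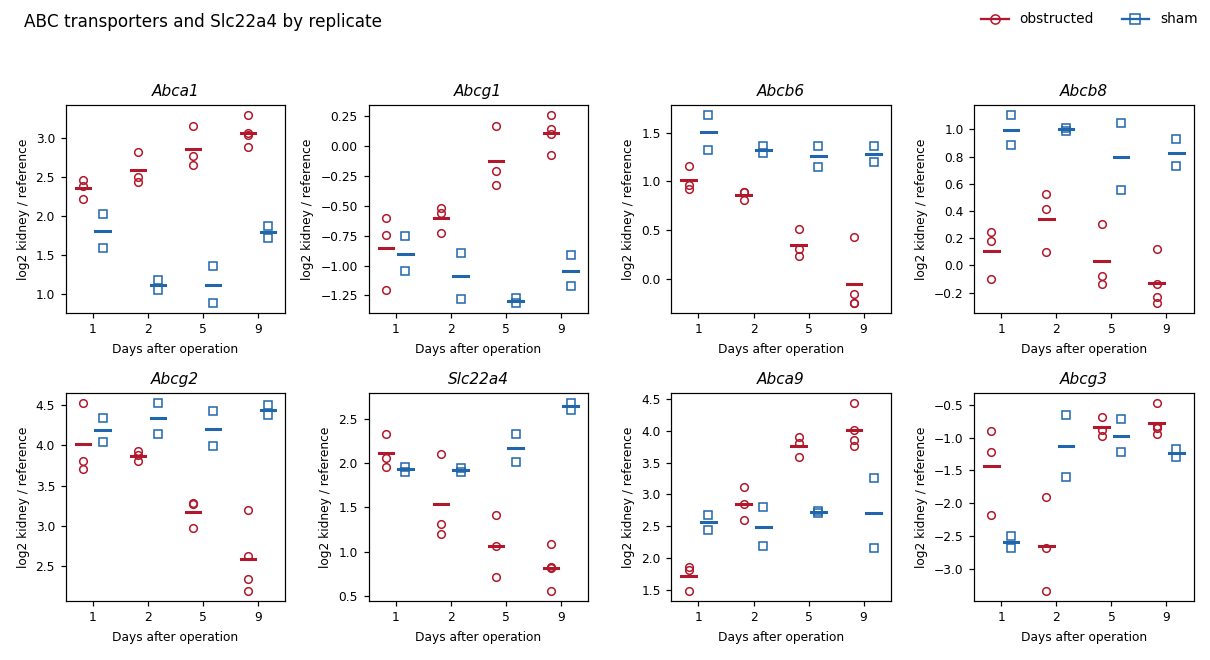
Log2 ratio of kidney over reference RNA (vertical axis, its range set for each gene) at days 1, 2, 5 and 9 for 7 ABC transporters and Slc22a4. Circles are obstructed and squares sham replicates with bars for group means, and the groups of Abcg1, Abcg2 and Slc22a4 overlap at day 1 and stand apart at day 9.

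The difference at day 9 lay below that at day 1 for 7 members (4.19% of all genes) and above it for 3 (7.47%). The counts of this contrast rest on few replicates, since 4 members passed in place of 10 without sham replicate S33L. Besides Slc22a4, Abcg2 (-1.67), Slco4a1 and Slco1a1 (-1.80), the 7 held Abcb6 (-0.85), Slc22a23 (-0.98) and Abcg8 (-1.36), and the 3 were Abca9, Abcg1 (1.10) and Abcg4 (1.74). Sham kidneys by themselves differed between days for 0 members by limma's F test, as for 0% of all genes at an adjusted p under 0.05. At an unadjusted p under 0.05 that test gave 5 members and 936 of all genes. The 5 were Abca1, Abcg3, Abcc3, Abcb1a and Slco3a1. With 2 sham replicates at each day the test cannot show that sham levels stayed the same.

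Among 11 measured regulators of these carriers, 7 fell (26.0% of all genes) and 2 rose (27.0%) over all days. Those that fell were Hnf4a (-0.51), the bile acid receptor Nr1h4 (-0.67), Nr1i3 (-0.73), the oxysterol receptor Nr1h3 (-0.37), Rxra (-0.43), Ppara (-0.43 ± 0.07, adjusted p = 0.000114) and Esr1 (-0.69). The aryl hydrocarbon receptor Ahr rose by 0.73 ± 0.10 (adjusted p = 2.34e-05) and the oxidative stress factor Nfe2l2 by 0.30. Of 9 scaffolds and partners that hold the carriers in place or feed their ion gradients, 6 fell and none rose, among them the sodium pump subunit Atp1b1 (-0.88 ± 0.12, adjusted p = 1.58e-05) and Pdzk1ip1 (-0.32 ± 0.05, adjusted p = 0.000146).

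Of 22 measured carriers of organic solutes outside the member names, 10 fell (26.0% of all genes) and 6 rose (27.0%). The share that rose was near that over all genes. Those that fell included the bile acid carrier Slc10a1 (-1.68 ± 0.21, adjusted p = 7.76e-06) and the urate carrier Slc17a3 (-1.01 ± 0.21, adjusted p = 0.000663). The peptide carrier Slc15a3 was among those that rose (1.77 ± 0.18, adjusted p = 1.09e-06). Of 10 measured genes of other ABC families 3 fell and 3 rose, close to the 26.0% and 27.0% of all genes, and those that rose were Tap1, Tap2 and Cftr.

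Markers of cell types moved with obstruction as well. Of 23 measured proximal tubule markers that are no members, 18 fell and none rose over all days, with a median difference of -0.66. Their mean level lay between 4.50 and 5.40 in the obstructed replicates and between 5.72 and 6.05 in the sham replicates. At day 9 it was 5.25 in S09L and 4.50 to 4.62 in the other obstructed replicates, against 5.81 and 5.83 in sham. S09L was thus nearest to sham in these markers, as in Slc22a6, Slc22a29 and Slc47a1. Not all members went this way, since S09L was the obstructed replicate of day 9 furthest from sham for Slco4c1 (3.54) and Slc22a21 (0.50). Markers of other tubule parts fell as well. These were 3 of 5 for the thick ascending limb, 3 of 3 for the distal tubule, 3 of 4 for principal cells and 3 of 5 for intercalated cells. None of these rose. Of 4 podocyte markers 2 fell and 1 rose, and of 6 endothelial markers 1 fell. All 12 measured monocyte and macrophage markers rose, with mean levels of 0.12 to 2.65 in the obstructed replicates and of -1 to -0.09 in the sham replicates, and all 7 fibroblast markers rose. Of 5 neutrophil markers 4 rose. Among all genes 26.0% fell and 27.0% rose. The part of these shifts in the differences of the transporter genes was not tested.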

How the data were processed

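RNA of 21 kidney replicates on 22 arrays was measured against a mouse universal reference RNA, kidney in Cy5 and reference in Cy3 on every array, per the labels. The authors deposited 1 ratio per spot whose unit is not stated, and its range (-3.11 to 4) fits log10. Log2 had been assumed, so the values were multiplied by 3.32. How the authors corrected background and dyes to make these log10 values is not given in the sources used. Exact zeros were taken as missing. Between 35747 and 39871 of 45220 spots per array were measured, and the number of arrays limits the precision. The lowest count was that of S09L, with 9271 exact zeros. The other obstructed arrays of day 9 had 39068 to 39871 measured spots.

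Probes naming 1 gene in the platform annotation and measured on at least 18 arrays were kept, array medians subtracted, and probes of a gene averaged. Arrays S03L and S03R (correlation 0.967) counted as 1 replicate. Means of the 8 groups were fitted in 1 model with limma 3.58.1 in R 4.3.3, with eBayes and Benjamini-Hochberg adjustment over all genes, after a test on simulated data. Named genes were those of lowest p per class, with the greatest changes per day, lowest p between days, and a set of well-known transporters and regulators. The members and lists were chosen with earlier results of these data known. P-values measure only the spread between these samples.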

Additional observations from a re-analysis of the deposited data

Results flagged for a closer look

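Within the 4 obstructed replicates of day 9, 1 replicate stood far from the other 3 for 7 of the 47 named transporter genes tested in this way. By chance about 1 in 20 groups would stand out, and over all genes with 4 values 1258 of 16453, or 7.65%, did so. The genes share their 4 replicates, so these counts are not independent. Replicate S09L was the high one for Abcb6 (0.43), Slc22a29 (4.43), Slc47a1 (4.31), Slc22a12 (1.03) and Slc22a13 (3.24), each on the log2 scale and each nearer to sham. It was the low one for Slc22a21 (0.50). S34L was the high one for Slco1a6 (6.16). S09L was also the obstructed replicate of day 9 whose Y-linked genes lay above Xist, and it had the fewest measured spots of all arrays (35747). The part of either in these single values was not tested.

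The effect of obstruction differed between days by limma's F test for Abcg1 (adjusted p = 0.0395), Abcg2 (0.0485), Abcg3 (0.0395), Slc22a4 (0.015) and Abca9 (0.0181). Between day 9 and day 1 the log2 difference changed by 1.10 for Abcg1, 2.16 for Abca9, -1.67 for Abcg2, -2.01 for Slc22a4, -0.85 for Abcb6, -0.98 for Slc22a23, -1.36 for Slco4a1 and -1.80 for Slco1a1.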

How the results depend on the processing

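Of the 43 members that passed over all days, 33 (27 down, 6 up) passed in the same direction under every alternative that tested them. The 2-fold limit is not among these alternatives, and Slc22a14 had no test with probes on all 22 arrays. The other 10 (Abca17, Abca4, Abca8a, Abca9, Abcc6, Slc22a13, Slc22a2, Slco1a6, Slco2b1 and Slco4a1) did not under at least 1. Slco1a6 turned to 0.0259 with quantile normalization. No median subtraction gave 4 rises at day 1. Quantile normalization gave 7 falls at day 1, 6 at day 2 and 12 from day 1 to day 9. Probes on all 22 arrays gave 4 rises at day 1, S03L and S03R kept apart 5, and array weights 16 falls at day 2. Arrays marked L only gave 5 calls at day 1 (0 up, 5 down), 6 at day 2 (4 down) and 0 between days. The image folder as a block gave 6 calls from day 1 to day 9 (4 down) and 2 between days. Without S06R, S08L, S09L and S21L there were 6 calls at day 2 (4 down) and 8 between days. Without S02L and S09L, an alternative added after seeing the data, 42 members passed over all days, with 16 falls at day 5, 12 from day 1 to day 9 and 11 calls between days. Each day fitted by itself gave 1 call at day 1 (0 up, 1 down). At least 2-fold were 12 members over all days (3 up, 9 down), 9 at day 1 (7 down), 6 at day 2 (4 down) and 6 falls at day 5. Leaving out 1 replicate gave 38 to 43 calls over all days (7 to 8 up, 31 to 35 down), 6 to 20 at day 1 (1 to 3 up, 5 to 17 down), 4 to 16 at day 2 (2 to 3 up, 2 to 13 down), 9 to 19 at day 5 (3 to 7 up, 6 to 13 down) and 24 to 38 at day 9 (5 to 8 up, 19 to 30 down). It gave 4 to 14 calls from day 1 to day 9 (1 to 5 up, 3 to 11 down) and 1 to 10 between days. The lowest counts came without S06R at day 1, S08L at day 2, S32L at day 5 and S33L from day 1 to day 9. Among all genes 4600 rose and 4422 fell, against 4049 and 5177 without median subtraction and 3600 and 4922 with quantile normalization. No paired analysis was possible because the groups share no replicate numbers. The causes were not tested.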
